A study of Mus musculus with 3 samples.

Results

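The genes described here are 40 genes of mitosis in N1E-115 cells: the mitotic cyclins and their kinase, the Aurora, Polo and checkpoint kinases, centromere and kinetochore proteins, condensin and cohesin-release genes, and a pair of proliferation genes (kinesins were left out of the list, other than the kinetochore kinesin Cenpe). They form a fixed list of gene names drawn up by function, with earlier results of these data known but no rule on measured values, and all 40 were found among the 24384 named genes of the count table. N1E-115 cells were established from a mouse neuroblastoma, and the labels call them neuroblasts. The 3 libraries of poly(A) RNA form a single group at day 0, wild type (spelled Wyld type in the labels) and without treatment, so no condition was compared. Nothing in the labels says whether the libraries came from separate cultures, and the spread between them may therefore be technical.

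Entry into mitosis is driven by cyclin-dependent kinase 1 bound to A- and B-type cyclins. Aurora and Polo-like kinases then build the spindle, kinetochores assemble on centromeric chromatin to hold its microtubules, and the spindle checkpoint delays the anaphase-promoting complex (APC/C), a ubiquitin ligase, until every chromosome is attached. The APC/C then marks securin and the cyclins for destruction, separase opens cohesin, and the sister chromatids part. Many of these genes are transcribed mainly late in the cell cycle, so their RNA in a bulk sample comes mostly from dividing cells. In such a sample the number of cells in that phase and the amount of RNA per cell cannot be told apart.

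Replicates 1, 2 and 3 contained 17731376, 13942014 and 15432235 estimated counts of named genes. Levels were scaled to the library total (counts per 1000000, CPM) or, to compare genes of different length, also to the length of annotated exon (TPM), and are given as mean ± SD over n = 3 libraries. The 7 listed markers of sympathetic neuroblasts were all detected, with a summed level of 2086 to 2246 CPM per library. Those of glia, fibroblasts, blood and endothelium summed to between 4.54 and 8.68 CPM per list and library, with 7 of 17 detected and Lum, Ptprc and Kdr at 0 counts. Every pair of libraries differed by more than counting error (12.0 to 16.3 in chi-square divided by its degrees of freedom), and none was treated as a duplicate.

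All 40 mitotic genes were detected, which means at least 1 CPM in every library, as were 47.3% of all named genes. At least 100 CPM in every library was reached by 21 of them, against 9.23% of all named genes. Together they took 0.691, 0.666 and 0.730% of the counts of replicates 1, 2 and 3. Top2a alone held 17% of the members' counts, and the 3 genes with the most counts (Top2a, Mki67 and Ccnb1) held 34.2%. The median member stood at 94.9 ± 3.74 TPM, against 27.7 ± 1.44 TPM for the 11481 detected genes with a known length. Of the 40, 37 were above that median and 9 were in the top 10% of detected genes by TPM. The highest and the lowest member, Top2a and Cdc25c, were 32.5-fold apart in TPM. This span depended on the gene length: it was 52.3-fold with the mean length of a gene's transcripts and 23.3-fold with its longest protein-coding transcript, from Top2a to Cenpi in both cases. In the order of mean TPM, 29 of the 39 neighbouring pairs overlapped within their SDs, so neighbouring ranks are not firm. Larger steps also depended on the gene length. Only 7 members were in the top 10 and 5 in the bottom 10 under all 3 lengths. With the longest protein-coding transcript, Nuf2 moved from rank 20 to 5 and Cenpa from rank 36 to 15.

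**Figure D1:**
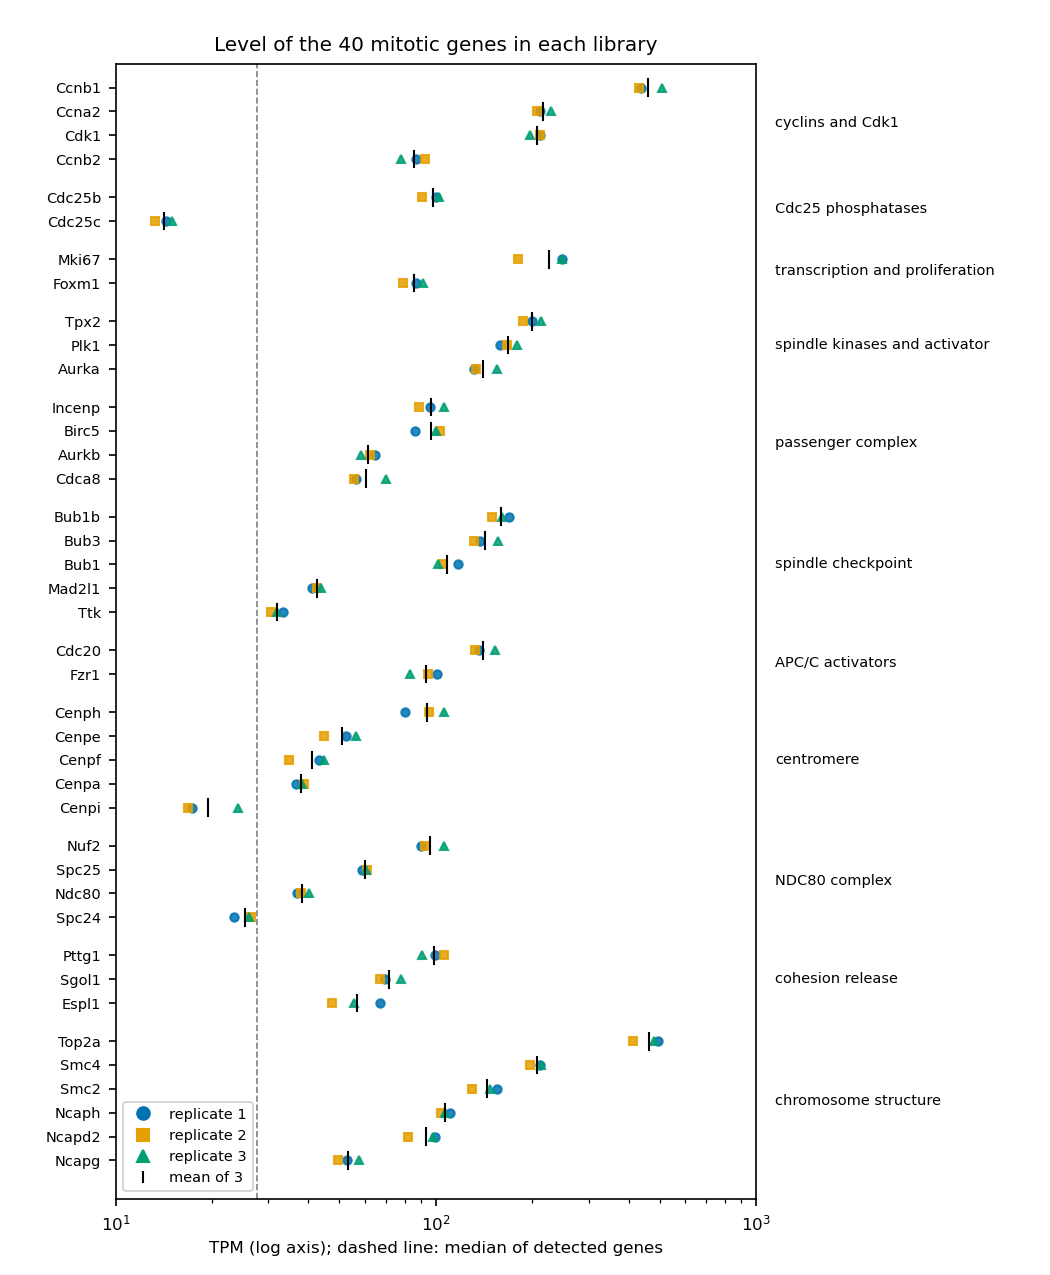
TPM of each of the 40 genes (log axis) in replicates 1, 2 and 3, with a bar at the mean and genes grouped by role. Top2a stands at 462 and Ccnb1 at 459 TPM, Cdc25c at 14.2 TPM, and only Spc24, Cenpi and Cdc25c have a mean below the dashed median of detected genes.

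The promoters of these genes shared short sequence elements that the choice of genes did not use. A core element of late cell cycle promoters is the cell cycle genes homology region (CHR), with the letters TTTGAA or a close variant, which is bound by the MuvB complex in its repressing (DREAM) and activating (with B-MYB or FOXM1) forms. The CCAAT box, bound by the factor NF-Y, is often found upstream of it. Promoter windows from RefSeq (build GRCm38.p6, the assembly also called mm10) reached from 250 bases before to 50 bases after an annotated start and were found for 32 of the 40 genes, in 33 windows. Bub3 had a pair of overlapping windows, in which the same elements are counted in both. Tpx2, Ccna2, Smc4, Incenp, Cdc25c, Aurkb, Spc24 and Foxm1 had none in the table.

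TTTGAA was present on either strand in 20 of the 33 windows (60.6%), against 17.9% of all 32851 windows in the table and 11.5% of the windows of genes detected in these cells. The palindrome TTTAAA was in 8 of 33 member windows (24.2%, exact binomial interval 11.1 to 42.3%), 13.2% of all and 8.80% of those of detected genes. The share of all windows lies inside that interval, so no difference from it can be read. Either form was in 69.7% of member windows, 27.6% of all and 18.7% of those of detected genes. CCAAT, again on either strand, was in 81.8% of member windows, 37.4% of all and 38.1% of those of detected genes. At least 2 boxes were in 48.5% of member windows and 14.6% of those of detected genes. A CCAAT box together with either CHR-type form was found in 63.6, 10.7 and 7.49%, in the same order. G and C made up 59.2% of member windows, 61.2% of those of detected genes and 53.8% of all. TATAAA was in 0 of 33 member windows (exact binomial upper bound 10.6%), 13.6% of all and 6.48% of those of detected genes, so that no difference from the detected genes can be read at this number of windows. The E2F-type letters GGCGGGAA were in 1 of 33 (3.03%), which lies between all windows (2.19%) and those of detected genes (4.14%). Among the other genes of mitosis listed further on, 46.2% of 106 windows held TTTGAA or TTTAAA, and 52.8% held CCAAT. Taken singly, TTTGAA was in 40.6% of them and TTTAAA in 10.4%. At least 2 CCAAT boxes were in 27.4% of those windows, and a box together with either CHR-type form in 29.2%.

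The elements lay close to the start. Positions are those of an element's first letter, with the annotated start at 0. Of 34 copies of TTTGAA or TTTAAA, 23 began at -60 or later, with a median position of -20.5. Of 53 CCAAT boxes, 36 began between -120 and 0, with a median of -68. In the 25 bases from the start on, 27.3% of member windows held a CHR-type element, against 1.17% of the windows of detected genes. CCAAT was most frequent between -75 and -50, in 33.3% of member windows and 9.25% of those of detected genes. Detected genes thus had CCAAT most often at the same place, with 3.83% of windows between -250 and -225. That position is therefore not particular to the members. CHR-type elements of detected genes were instead most frequent between -250 and -225, in 2.95% of windows. These matches describe letters in a window and do not show that a factor binds there.

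**Figure D2:**
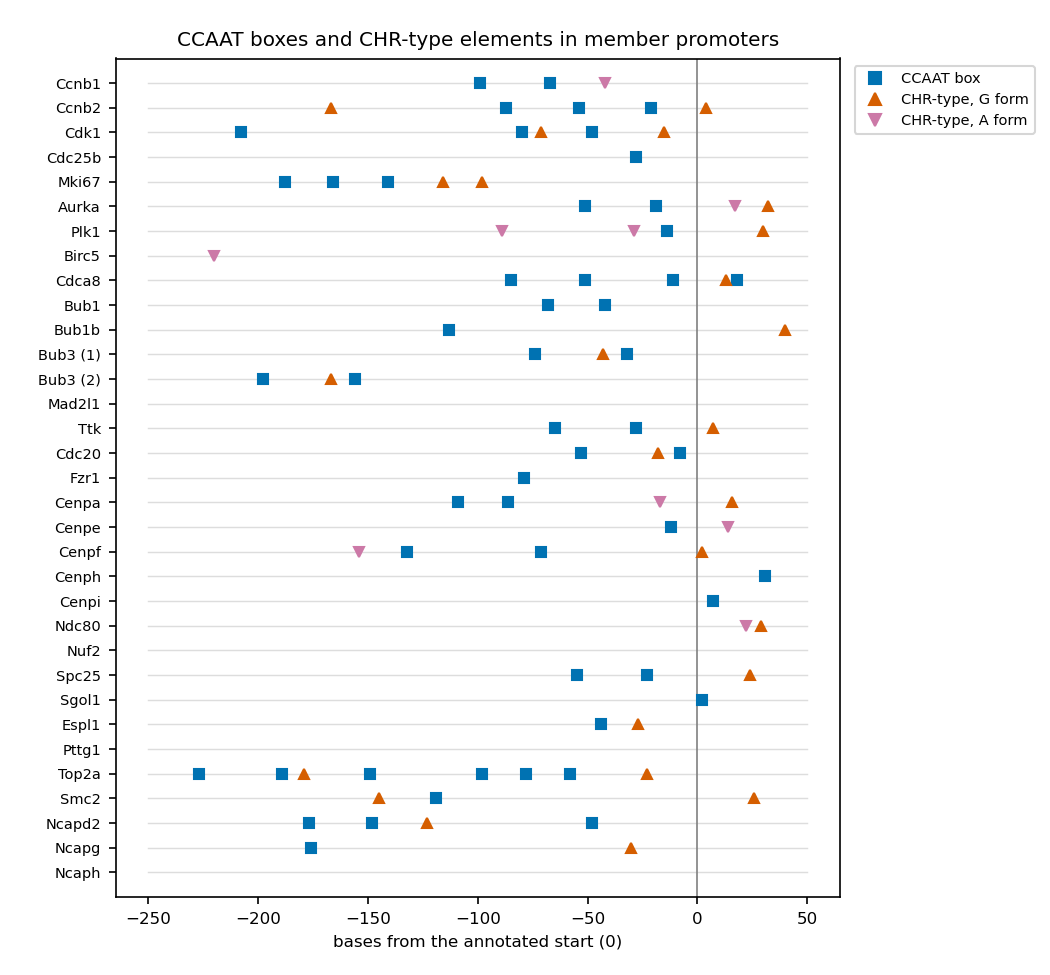
Position of CCAAT boxes (squares) and CHR-type elements in their G form (TTTGAA, upward triangles) and A form (TTTAAA, downward triangles) in 33 promoter windows of 32 members, in bases from the annotated start. CCAAT boxes lie mostly between -120 and 0 and CHR-type elements mostly to their right, at -60 or later.

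Among the 32 members with a window, Cdk1 and Cenpf carried the tandem arrangement known from the cell cycle-dependent element followed by the CHR, here searched as GCGG exactly 4 bases before TTTGAA. It was found in 2 of 33 member windows (6.06%), 2 of 106 windows of the other listed genes of mitosis (1.89%) and 0.0700% of all. The stretches below show that tandem and, for Ccnb1, Ccnb2 and Cdc20, CCAAT boxes near a CHR-type element (these 3 were picked after their matches were seen). Each runs 5′ to 3′ on the gene's strand from 130 bases before the start to the end of the window. Capitals mark the CCAAT box on either strand (the other strand reads ATTGG). They also mark both forms of the CHR-type element and, in Cdk1 and Cenpf, the first element of the tandem. All 5 genes lie on the minus strand, at chr10:69352863-69353042 (Cdk1), chr1:189688037-189688216 (Cenpf), chr13:100786437-100786616 (Ccnb1), chr9:70421505-70421684 (Ccnb2) and chr4:118437294-118437473 (Cdc20).
Cdk1: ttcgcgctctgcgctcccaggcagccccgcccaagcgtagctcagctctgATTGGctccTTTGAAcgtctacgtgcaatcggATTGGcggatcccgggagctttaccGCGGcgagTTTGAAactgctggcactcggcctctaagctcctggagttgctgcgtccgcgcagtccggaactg
Cenpf: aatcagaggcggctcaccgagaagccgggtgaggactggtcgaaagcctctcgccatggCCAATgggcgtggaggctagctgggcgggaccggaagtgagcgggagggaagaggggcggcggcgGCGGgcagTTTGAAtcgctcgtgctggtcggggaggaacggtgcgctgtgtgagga
Ccnb1: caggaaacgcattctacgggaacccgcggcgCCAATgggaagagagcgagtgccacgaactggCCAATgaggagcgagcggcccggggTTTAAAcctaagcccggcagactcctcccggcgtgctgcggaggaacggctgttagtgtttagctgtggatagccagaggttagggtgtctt
Ccnb2: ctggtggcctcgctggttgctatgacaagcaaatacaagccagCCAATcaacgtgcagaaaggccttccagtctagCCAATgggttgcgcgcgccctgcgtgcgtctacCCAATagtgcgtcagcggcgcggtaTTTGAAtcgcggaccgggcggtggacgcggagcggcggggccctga
Cdc20: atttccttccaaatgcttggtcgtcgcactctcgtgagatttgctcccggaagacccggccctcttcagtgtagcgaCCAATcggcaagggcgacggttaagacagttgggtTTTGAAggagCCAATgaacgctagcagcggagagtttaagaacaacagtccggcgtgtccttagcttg

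In Cdk1 the tandem's TTTGAA began at -15, a further TTTGAA at -71, and the nearest CCAAT boxes (here as ATTGG) began at -80 and -48, which is 32 bases apart. Ccnb1 had boxes at -99 and -67, also 32 apart, before a TTTAAA at -42. Ccnb2 had 3 boxes at -87, -54 and -21, each 33 bases from the next, before a TTTGAA at 4. In Cdc20 the TTTGAA at -18 had a box on either side, at -53 and -8. Boxes 30 to 35 bases apart, a spacing chosen after these matches were seen, were found in 6 members (also Aurka, Spc25 and Cdca8). This was 18.2% of member windows, against 1.64% of all windows and 2.73% of those of detected genes. The other listed genes of mitosis had such boxes in 9 of 106 windows (8.49%). Neither TTTGAA nor TTTAAA was in the windows of 10 members (Bub1, Cdc25b, Cenph, Cenpi, Fzr1, Mad2l1, Ncaph, Nuf2, Pttg1 and Sgol1).

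**Figure D3:**
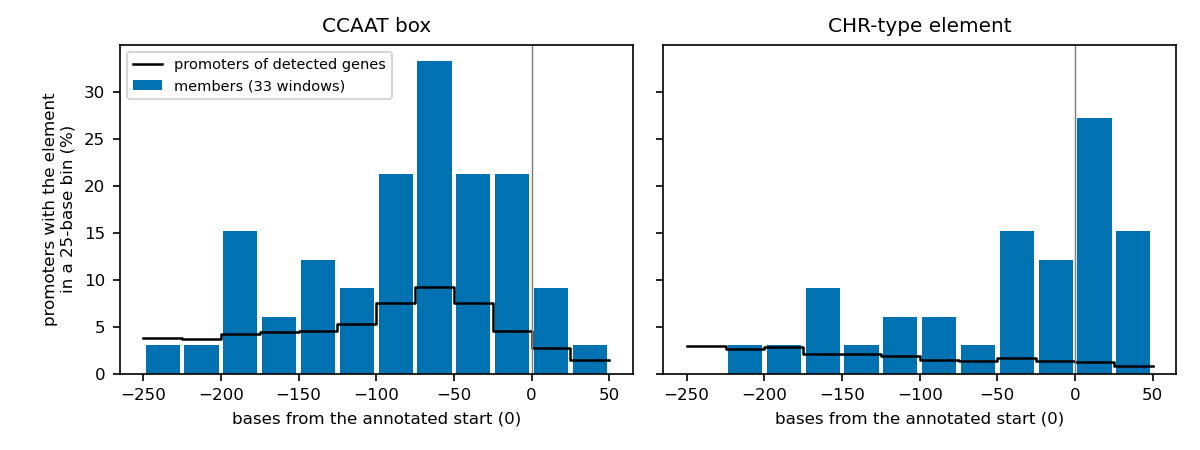
Share of the 33 member windows (bars, %) and of the windows of detected genes (line, %) that hold a CCAAT box or a CHR-type element starting in each 25-base bin, in bases from the annotated start. The member bars reach 33.3% for CCAAT between -75 and -50 and 27.3% for the CHR-type element just after the start, where the lines are at 9.25 and 1.17%.

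Among the cyclins and their kinase, Ccnb1, the B-type cyclin that triggers mitotic entry, stood at 438, 432 and 507 TPM in replicates 1, 2 and 3 (459 ± 41.7). Ccnb2, the second B-type cyclin, was at 86.5, 92.3 and 77.8 TPM (85.5 ± 7.25), so that every library had Ccnb1 above Ccnb2. The mean ratio was 5.37-fold, and between 5.37- and 15-fold under the 3 definitions of gene length used (all annotated exon, mean transcript, longest protein-coding transcript). Ccna2, the A-type cyclin of S phase and early mitosis, reached 212, 208 and 230 TPM (216 ± 11.7). Cdk1, the catalytic partner of these cyclins, was at 211, 212 and 197 TPM (207 ± 8.51). Ccnb1 thus exceeded Cdk1 in every library, 2.22-fold on average and 1.54- to 3.33-fold over the definitions of length. Part of the Ccna2 exon (510 nt) is shared with Exosc9 on the opposite strand, which held 548 to 584 counts per library, and whether counting used strand is not given in the sources used here.

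Of the Cdc25 phosphatases, which remove the inhibitory phosphates from Cdk1, Cdc25b was at 100, 90.7 and 102 TPM (97.7 ± 6.18). Cdc25c was at 14.4, 13.3 and 15 TPM (14.2 ± 0.868), from 267 to 345 counts per library. This was the lowest level among the members, while under both other lengths Cenpi was lower. The log2 ratio of Cdc25b to Cdc25c was nearly the same in each library (2.80, 2.77 and 2.77), or 6.88-fold, and 3.28-fold with the longest protein-coding transcript as the length. Foxm1, the transcription factor that activates many late cell cycle genes, was at 86.8, 78.9 and 91.4 TPM. Mki67, which coats mitotic chromosomes and is the common marker of proliferating cells, was at 248, 181 and 247 TPM (225 ± 38.6), with replicate 2 below the others.

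The spindle kinases were high. Plk1, the Polo-like kinase of centrosome maturation, stood at 159, 167 and 179 TPM, and Aurka, the Aurora kinase of the spindle poles, at 131, 134 and 155 TPM (140 ± 13.1). Tpx2, which activates Aurora A on spindle microtubules, was at 200, 187 and 213 TPM, above Aurka in every library (1.43-fold, and 1.15- to 1.5-fold over the definitions of length). The order of Plk1 and Aurka depended on the length used (log2 ratio -0.14 to 0.32).

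The chromosomal passenger complex corrects faulty attachments and consists of Aurora B, its scaffold Incenp, survivin (Birc5) and borealin (Cdca8). Its genes spanned 1.60-fold in TPM, and 1.98- and 2.06-fold with the other lengths. Aurkb was at 64.4, 62.1 and 58.3 TPM (61.6 ± 3.08), Incenp at 96.2, 88.5 and 106, Birc5 at 86.0, 103 and 100, and Cdca8 at 56.2, 55.7 and 70.1. Aurka exceeded its paralog Aurkb in every library, 2.27-fold on average and at the least 1.34-fold over the definitions of length. Incenp also exceeded Aurkb throughout (1.57-fold, 1.39- to 1.59-fold). The order of Birc5 and of Cdca8 relative to Aurkb changed with the length used.

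In the spindle checkpoint, Bub1b (BubR1), which binds and inhibits Cdc20, was at 169, 150 and 161 TPM (160 ± 9.50), and Bub3, the adaptor of both Bub kinases, at 137, 132 and 157 TPM. Bub1, the kinase that recruits the others to kinetochores, followed at 117, 106 and 101 TPM. It was lower than its paralog Bub1b in every library, by a mean of 1.48-fold and by 1.35- to 1.48-fold over the definitions of length. Mad2l1, the checkpoint protein that captures Cdc20, was at 41.0, 42.6 and 43.9 TPM, and Ttk (Mps1), the kinase that starts the signal, at 33.3, 30.6 and 31.9 TPM. Both were below their partners in every library and for every length: Bub1b exceeded Mad2l1 3.75-fold and Bub1 exceeded Ttk 3.38-fold. Ttk was also among the steadiest members, with a coefficient of variation of 1.06% in CPM.

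The APC/C activators act in turn, Cdc20 in mitosis and Fzr1 (Cdh1) at its end and in the next G1 phase. Cdc20 was at 137, 132 and 153 TPM (141 ± 10.9) and Fzr1 at 101, 94.5 and 83.2 TPM (93.0 ± 9.04). Replicate 3 had the highest Cdc20 and the lowest Fzr1. With all annotated exon as the length Cdc20 was the higher in each library (1.52-fold). The ratio fell to 1.05-fold with the mean transcript length and 1.08-fold with the longest protein-coding transcript. With neither of these lengths was Cdc20 the higher in every library.

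Centromere genes had a median of 41.0 TPM, the lowest of the 11 role groups with all annotated exon as the length, and of 38.4 TPM with the longest transcript. With the mean transcript length it was 75.6 TPM, above the NDC80 (60.2) and Cdc25 (66.3) genes. Cenpa, the histone H3 variant that marks centromeres, was at 36.7, 38.7 and 38.3 TPM (37.9 ± 1.04), but at 102 TPM with its longest protein-coding transcript (1466 nt against 5860 nt of annotated exon) as the length. Cenph, of the inner kinetochore network, was at 80.2, 95.3 and 106 TPM, and its network partner Cenpi at 17.3, 16.9 and 24.1 TPM (19.4 ± 4.08). Cenph exceeded Cenpi 4.86-fold, and at least 3.71-fold over the definitions of length. Cenpe, the kinetochore motor, and Cenpf, a large protein of the outer kinetochore, were at 51.1 ± 5.88 and 41.0 ± 5.31 TPM. Both were lowest in replicate 2, and their order changed with the length used.

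The NDC80 complex, the rod that grips microtubules, is made of equal numbers of its 4 subunits, while their RNA spanned 3.80-fold in TPM, 4.47-fold with the mean transcript length and 6.60-fold with the longest transcript. Nuf2 led at 90.2, 92.3 and 106 TPM (96.3 ± 8.77), then Spc25 at 58.9, 60.9 and 60.5, Ndc80 at 36.8, 37.9 and 40.1, and Spc24 at 23.5, 26.4 and 26.1 TPM. Nuf2 exceeded its direct partner Ndc80 2.51-fold and Spc25 exceeded Spc24 2.38-fold, in every library and for every length. The libraries overlapped for none of these neighbouring subunits.

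Of the genes that control the release of cohesion, Pttg1 (securin), the inhibitor of separase, was at 99.3, 106 and 90.8 TPM (98.6 ± 7.52). Espl1 (separase), the protease, was at 67.0, 47.6 and 55.6 TPM (56.7 ± 9.78). Sgol1 (shugoshin), which protects centromeric cohesion, was at 69.6, 66.8 and 77.8 TPM. Pttg1 exceeded Espl1 in each library by this measure (1.75-fold), and by 1.07-fold with the mean transcript length, where the direction did not hold in every library.

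Chromosome structure genes included the highest member. Top2a, the topoisomerase that untangles sister chromatids, was at 494, 413 and 479 TPM (462 ± 43.1), within its SD of Ccnb1. With the mean transcript length it was at 1000.3 ± 86.1 TPM and no longer overlapped Ccnb1 (522 ± 45.5). The SMC pair shared by both condensins was uneven, with Smc4 at 211, 196 and 214 TPM and Smc2 at 155, 130 and 148 TPM. Smc4 was above Smc2 in every library and for every length (1.44- to 2.33-fold). Of the subunits particular to condensin I, Ncaph was at 107 ± 3.60, Ncapd2 at 93.1 ± 9.85 and Ncapg at 53.2 ± 3.93 TPM. Ncaph exceeded Ncapg 2.02-fold (1.69- to 2.17-fold), while the order of Ncapd2 and Ncaph changed with the length used. The exons of Ncapg overlap those of Lcorl on the opposite strand by 944 nt (458 to 583 counts per library).

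Over all 24 fixed pairs of partners or paralogs, 18 kept their direction under the 3 definitions of length and 16 did so in every single library as well. No test was made of these ratios, since the smallest p that an exact two-sided sign-flip test allows with 3 libraries is 0.25.

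**Figure D4:**
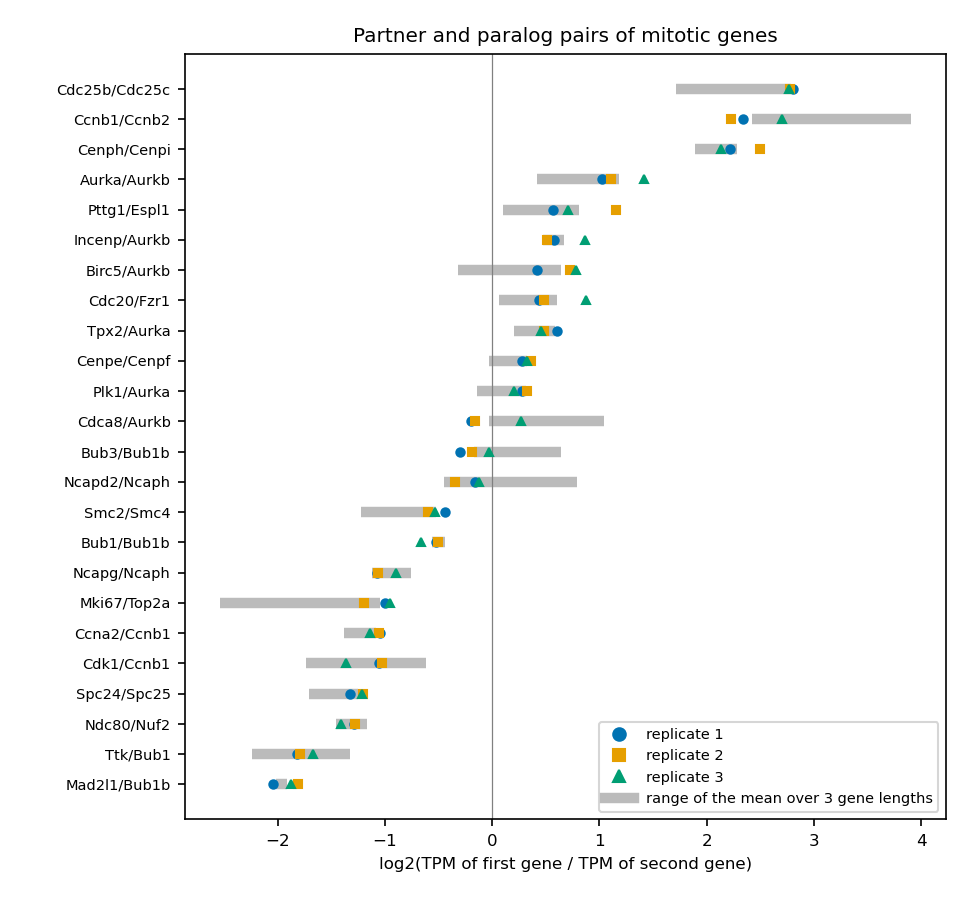
log2 ratio of TPM for 24 pairs of mitotic genes (first over second gene), with a point for each of 3 libraries and a grey band for the range of the mean over 3 definitions of gene length. The ratios of Cdc25b to Cdc25c, Ccnb1 to Ccnb2 and Cenph to Cenpi are the highest, and bands that cross 0 mark pairs whose order depends on the length.

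The spread of the mitotic genes between libraries was close to that of genes at a high level, with a median coefficient of variation of 7.56% for members and 7.50% for genes of at least 100 CPM (9.80% for all detected genes). The test across genes was an intercept-only negative binomial fit in edgeR, in which the deviance of each gene from equal levels in the 3 libraries is compared with that of genes of similar count. After Benjamini-Hochberg adjustment it called 0 of the 40 members, here and in each alternative fit (DESeq2 size factors included), against 0.643% of the 11821 genes tested; at that background a count of 0 among 40 does not set the members apart. At an unadjusted p under 0.05 it gave 1 member, against 5.9% of all genes. This was Cenpi, with 479, 392 and 599 counts (edgeR unadjusted p = 0.0492, adjusted p = 0.839). On simulated counts the same test recovered 35.8% of genes lowered 2-fold in 1 library and 2.99% of those lowered 1.5-fold. The lowered genes were drawn from all 11821 tested, so over all genes most differences of that size would be missed. Recovery at the members' own, mostly higher counts was not simulated separately. The coefficient of variation ranged from 0.678% for Ncaph to 20.8% for Cenpi.

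Although no single member passed, most leaned the same way in replicate 3. The log2 ratio of replicate 3 to the mean of the other libraries, with TMM scaling, was above 0 for 33 of 40 members, against 50.4% of the 11522 detected genes. Its median was 0.14 for members and 0.00 for detected genes. Replicate 3 was the highest library for 29 members and for 34.0% of detected genes. The ratios reached 0.53 for Cenpi, 0.36 for Cdca8 and 0.29 for Cenph, and 7 members were lower there, among them Fzr1 (-0.20), Ccnb2 (-0.17), Pttg1 (-0.15) and Bub1 (-0.10). Replicate 1 was lower than the others for 30 members (median -0.09) and replicate 2 for 26 (median -0.06), the latter turning to 0.05 against replicate 1 alone. Of the 11522 detected genes, 5795 were lower in replicate 1 and 5661 in replicate 2. Against replicate 1 alone and replicate 2 alone, the members' median in replicate 3 was 0.15 each time. This is a description of single libraries, without a test.

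Transcript length moved with these ratios in 2 of the libraries. Over all detected genes the ratio changed by 0.09 per doubling of exon length in replicate 1, by -0.12 in replicate 2 and by 0.02 in replicate 3. Among the 10 members with the longest exon sequence (6341 to 15433 nt), 8 were lower in replicate 2, led by Mki67 (-0.39) and Espl1 (-0.30). Among the 10 shortest (1531 to 3402 nt), 8 were higher there and 9 were lower in replicate 1, led by Cenph (-0.42). After the trend over all genes was removed, replicate 3 was still above the others for 33 of 40 members, with a median of 0.16 (0.02 for detected genes), and the 10 longest members had a median of -0.03 in replicate 2 in place of -0.13. In replicate 1 the median of the 10 longest moved away from 0, from -0.08 to -0.18, while that of the 10 shortest went from -0.19 to -0.12. Replicate 1 was then lower than the others for 32 of 40 members, with a median of -0.11 (-0.01 for detected genes). For the counts by length and those after removal of the trend, no matching count over all detected genes was made.

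**Figure D5:**
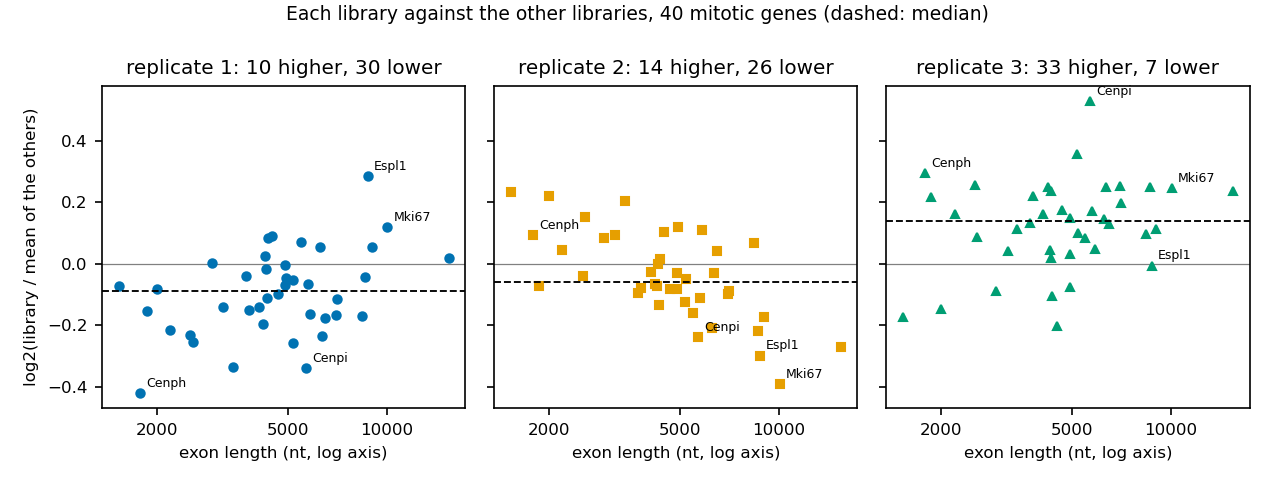
log2 ratio of each library to the mean of the others (TMM-scaled CPM) for the 40 members against exon length in nt (log axis), with a panel for each replicate and a dashed line at the median. In replicate 3, 33 of 40 points lie above 0, and in replicate 2 the longest genes, such as Mki67, lie lowest.

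The other genes of mitosis were also expressed. Their TPM is given with all annotated exon as the length only. All 106 listed genes outside the members were detected, with a median of 54.3 TPM, and 0 passed the edgeR test of variation (against 0.643% of all genes), with Ska2 (unadjusted p = 0.0224) and Pds5a (0.0380) under 0.05 before adjustment. In replicate 3 their median log2 ratio was 0.08. Among 15 controls of mitotic entry (median 58.5 TPM), the Cdk-binding proteins Cks2 (308 ± 16.6) and Cks1b (284 ± 16.9) and the phosphatase inhibitor Arpp19 (83.9 ± 4.61) were highest. Of 16 APC/C genes (median 49.4 TPM), the subunits Anapc5 (239 ± 13.3) and Cdc16 (180 ± 8.30) and the ubiquitin-conjugating enzyme Ube2c (199 ± 22.3) led. The 16 further checkpoint and kinetochore genes had a median of 52.7 TPM, with Zwint (160 ± 8.89), Trip13 (82.1 ± 2.73) and Mad2l1bp (75.1 ± 1.12) first. Further centromere, inner kinetochore and CENP-A loading genes were lower, with a median of 30.2 TPM over 16 genes. Mis18a (64.0 ± 2.29), Oip5 (56.6 ± 1.22) and Cenpb (54.3 ± 6.0) came first.

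Cohesin genes (13, median 61.0 TPM) were led by the kleisin subunit Rad21 (609 ± 36.5), then by Smc3 (214 ± 12.0) and Smc1a (178 ± 28.2). With all annotated exon as the length, Rad21 was above every member. Of 3 further condensin genes, Ncaph2 was at 258 ± 16.0 TPM, against 43.3 ± 3.75 for Ncapd3 and 30.7 ± 4.55 for Ncapg2. In spindle assembly and cytokinesis (17 genes, median 87.1 TPM), the centralspindlin subunit Racgap1 (267 ± 14.6), the microtubule polymerase Ckap5 (126 ± 17) and Ckap2l (121 ± 15.2) were highest. The DREAM, MuvB and B-MYB genes, whose complexes bind the CHR, had a median of 36.8 TPM over 10 genes. Tfdp1 (198 ± 5.53), Rbbp4 (142 ± 0.834) and E2f4 (106 ± 5.34) led them, and Mybl2 (B-MYB) was at 94.4 ± 3.58 TPM.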

How the data were processed

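Poly(A) RNA of 3 libraries of untreated N1E-115 cells was analysed. The deposited values are estimated counts by gene symbol, with no depth scaling. The submitters' processing notes name STAR and mm10, and the counter, its annotation and its use of strand were not given in the sources used here. Counts were rounded to whole numbers (1.76 to 1.98% of values per library were fractional by over 0.01, none of them a member's). The 27 rows named by calendar dates (0.281 to 0.306% of counts) were left out.

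CPM used the total of named genes, at 13942014 to 17731376 counts, so that 1 count was worth 0.0564 to 0.0717 CPM. TPM used the union of exons in GENCODE M21 (the same assembly), which gave a length to 23999 genes (98.4%), 649 of them by older symbols. Sgol1 was matched as Sgo1. The test of variation between libraries used edgeR 4.0.16 under R 4.3.3 (TMM, filterByExpr, trended dispersion, chi-square with 2 degrees of freedom, Benjamini-Hochberg over all genes, threshold 0.05). It was checked on simulated counts for 11821 genes, where 0 genes were called with none changed and 87.9% of genes lowered 4-fold in 1 library were recovered. DESeq2 1.42.0 gave alternative size factors, and Python 3.11.15 the rest.

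Members and gene lists were chosen with earlier results of these data known. Named genes are all members, the 3 highest of each other list, and those picked out as stated; Ska2, Pds5a, Mybl2, the stretches of Ccnb1, Ccnb2 and Cdc20 and the box spacing were chosen after their values were seen. Alternatives covered the detection minimum, scaling, low-count filter, dispersion, gene length, motif strand and window, and leaving out each replicate. Protein sequences were not used here.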

Additional observations from a re-analysis of the deposited data

How the results depend on the processing

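All 40 members were detected with minima of 0.5 or 5 CPM and without any replicate, and 0 were called variable under each alternative fit. Over all genes 76 were called variable, 116 with a common dispersion, and 36 to 52 with a replicate left out. At least 100 CPM was reached by 21 to 23 members with a replicate left out, and the median of all 40 members was then 109 to 112 CPM. The median TPM of members was 94.9, 105 with the mean transcript length and 88.3 with the longest protein-coding transcript, a choice made after the data were seen. The median absolute log2 ratio of the 24 pairs was 0.91 and 0.73 with the mean transcript length, and the median log2 range within the 10 groups of partners was 1.94, 2.14 with the mean transcript length and 1.51 with the longest transcript. With the mean transcript length 3 pairs reversed, Birc5/Aurkb to -0.32, Cdca8/Aurkb to 0.23 and Ncapd2/Ncaph to 0.79. With the longest transcript 4 did, Plk1/Aurka to -0.14, Bub3/Bub1b to 0.65, Cdca8/Aurkb to 1.05 and Cenpe/Cenpf to -0.026. With a replicate left out, Cdca8/Aurkb (-0.03) reversed to 0.054 and 0.034, and was -0.18 without replicate 3. The reversals under another length follow from the lengths used, and the cause of the others was not tested. The members' median log2 ratio in replicate 2 ranged from -0.15 to 0.047 with a replicate left out. On the forward strand only, CCAAT was in 54.5% of member windows and 21.7% of those of detected genes, and TTTGAA in 45.5 and 6.34%. Within the last 150 bases the shares were 66.7 and 25.5% for CCAAT and 54.5 and 4.39% for TTTGAA. Each member had at least 267 counts in every library. No paired analysis was possible because there was 1 group.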
